A study of Mus musculus with 6 samples.

Results

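The core circadian clock genes were examined in microglia that lacked or carried the transcription repressor Bhlhe41. They comprised 10 genes: the activators Arntl and Clock, the period genes Per1, Per2 and Per3, the cryptochromes Cry1 and Cry2, the nuclear receptors Nr1d1 and Nr1d2, and the output factor Dbp. Every non-control probe whose transcript is annotated to one of these symbols was taken, which gave 19 probes among the 56605 on the array, and 10 of the 23462 genes that could be named. Arntl and Clock had 3 probes each, Per2, Per3, Cry1, Nr1d2 and Dbp had 2, and Per1, Cry2 and Nr1d1 had 1. For each gene, the probe with the highest mean over all arrays stood for the gene, and the other probes were examined beside it.

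The arrays compared microglia of Bhlhe41 dTomato-Cre/+ mice (B41 HET, the control, n = 3) with those of Bhlhe41 dTomato-Cre/dTomato-Cre mice (B41 KO, n = 3), so that both groups carried at least 1 copy of the reporter and no wild-type sample was arrayed. The allele is a knock-in reporter and a null at once: dTomato and Cre, joined by a 2A peptide and closed by a polyA signal, take the place of the Bhlhe41 protein as the product of the locus. The mice were on the C57BL/6 background, 3 months old and kept under 12 h of light and 12 h of dark, and the time of day at which cells were collected is not given in the sources used here. Microglia, the resident macrophages of the brain, were enriched on Percoll and sorted as live CD45-low, CD11b+ and Cx3cr1+ cells, and cells of 10 to 15 mice were pooled into each sample, although the labels speak of mice. Values below are quantile-normalized log2 intensities, and differences are B41 KO minus B41 HET, with p-values from limma adjusted over all probes.

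The circadian clock of most mammalian cells is a feedback loop of transcription. The bHLH-PAS proteins CLOCK and BMAL1 (the product of Arntl) bind E-boxes together and drive the Per and Cry genes, whose products return to the nucleus and inhibit them. In a connected loop the same activators drive Nr1d1 and Nr1d2, which encode the repressors REV-ERBα and REV-ERBβ of Arntl, and Dbp, an activator that binds D-boxes in further clock genes. Bhlhe41 (also called Dec2) and its relative Bhlhe40 bind E-boxes as repressors and so compete with CLOCK and BMAL1.

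The sequences just ahead of the start sites show where such elements lie. RefSeq promoter windows (GRCm38.p6, 250 bases before to 50 after an annotated start) were given for 9 of the 10 genes, in 13 windows, all but Per2. The windows were searched on both strands for the E-box CACGTG, its variant CACGTT, the D-boxes TTATGTAA and TTACGTAA, the ROR element TAGGTCA and the cyclic AMP element TGACGTCA; of these, CACGTG, TTACGTAA and TGACGTCA read the same on both strands, and no matches in the clock genes' windows overlapped. CACGTG was found in the windows of Cry1 and Per1, CACGTT in those of Cry1, Cry2 and Nr1d1, TTATGTAA in that of Per3, and TAGGTCA after the start site of 1 of the 2 Arntl windows. The 3 Clock windows and those of Nr1d2 and Dbp held none of these letters, which says only that they are not in these windows. Among all 32851 windows, 7.15% held CACGTG, 4.68% CACGTT, 0.938% TTATGTAA, 0.119% TTACGTAA, 2.61% TAGGTCA and 1.79% TGACGTCA.

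Shown here are the 250 bases ahead of the start site of 4 genes, with the matched letters in capitals: Per3, the member with the lowest adjusted p; Per1 and Cry1, the members with an E-box; and Ciart, a clock repressor outside the 10 genes that fell in B41 KO microglia. They lie at chr4:151044666-151044915 (minus strand), chr11:69098699-69098948 (plus strand), chr10:85185055-85185304 (minus strand) and chr3:95882229-95882478 (minus strand), and read 5′ to 3′ along the gene.
Per3: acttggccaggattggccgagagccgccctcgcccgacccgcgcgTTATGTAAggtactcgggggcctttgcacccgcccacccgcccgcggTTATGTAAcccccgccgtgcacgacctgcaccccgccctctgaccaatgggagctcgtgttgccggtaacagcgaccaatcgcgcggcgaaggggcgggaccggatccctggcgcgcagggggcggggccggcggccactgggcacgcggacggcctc
Per1: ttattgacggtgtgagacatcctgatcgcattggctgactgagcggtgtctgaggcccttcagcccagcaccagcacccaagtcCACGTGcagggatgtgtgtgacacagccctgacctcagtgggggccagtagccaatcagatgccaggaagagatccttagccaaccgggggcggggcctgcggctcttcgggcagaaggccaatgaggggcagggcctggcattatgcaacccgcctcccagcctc
Cry1: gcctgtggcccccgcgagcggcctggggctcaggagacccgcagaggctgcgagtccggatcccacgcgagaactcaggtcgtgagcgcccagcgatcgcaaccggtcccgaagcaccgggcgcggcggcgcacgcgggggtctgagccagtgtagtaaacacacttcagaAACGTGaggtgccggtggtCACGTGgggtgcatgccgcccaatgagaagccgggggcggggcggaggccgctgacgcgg
Ciart: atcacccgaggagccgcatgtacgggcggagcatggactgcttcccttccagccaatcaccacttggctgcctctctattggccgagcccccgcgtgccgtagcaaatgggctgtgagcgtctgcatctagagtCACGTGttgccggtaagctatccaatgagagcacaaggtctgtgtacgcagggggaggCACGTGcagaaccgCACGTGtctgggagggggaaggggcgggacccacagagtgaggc
Per3 held 2 D-boxes, which begin 205 and 158 bases before the start site, and 0.0213% of all windows held TTATGTAA at least 2 times. Per1 held 1 E-box, 166 bases before the start. Cry1 held an E-box 60 bases before the start and, on the other strand, the variant 79 bases before it. Ciart held 3 E-boxes, at 116, 58 and 44 bases before the start, as did 0.0883% of all windows (3 or more). A match is a description of the sequence, and binding was not measured here.

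**Figure D1:**
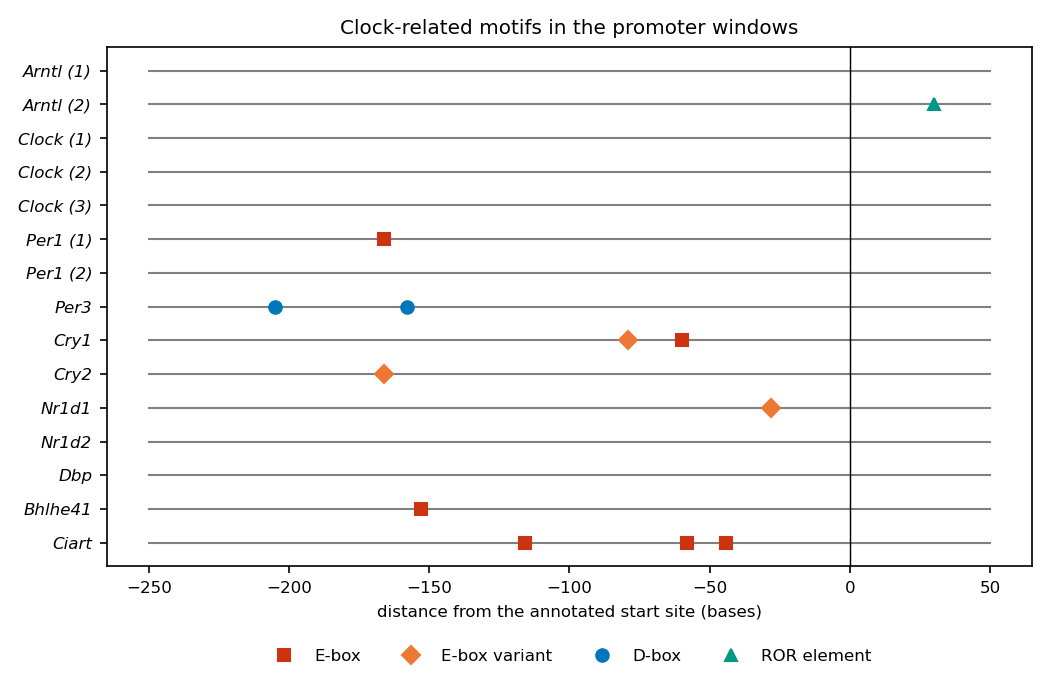
Position of motif matches in the promoter windows of 9 core clock genes and of Ciart and Bhlhe41, with the distance from the annotated start site in bases on the x axis and 1 line per window. Squares mark the E-box, diamonds its variant, circles the D-box and triangles the ROR element. Ciart has 3 E-boxes, Cry1 and Per1 have 1 each, and Per3 has 2 D-boxes.

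None of the 10 core clock genes changed between the genotypes under the rule used, which asks for an adjusted p of at most 0.05 and a log2 difference of at least 0.5 in size: 0 of 10 genes and 0 of 19 probes passed in limma. Over all genes named on the array, 5.45% passed by their brightest probe (1279 of 23462), and 5.07% of all probes did. At an unadjusted p under 0.05, 4 of the 10 genes passed (Arntl, Clock, Per3 and Nr1d2), beside 25% of all genes, and at the adjusted p alone, with no fold required, 2 did (Per3, lower in B41 KO, and Nr1d2, higher), beside 7.56% of all genes. The 2 groups did not overlap for those same 4 genes, beside 32.2% of all genes. The median difference of the 10 genes was -0.01, with 5 above and 5 below 0, and that of all genes was 0.01. The median size of the difference, without its sign, was 0.14 for the 10 genes and 0.19 for all genes.

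The arrays themselves were alike in quality. Between 70.1% and 75.5% of probes were well above background on each array, no spot was saturated, and the correlation between arrays was 0.989 to 0.993 within a genotype and 0.985 to 0.989 between them. All 10 microglia markers (Tmem119, P2ry12, Sall1 and others) were well above background on all 6 arrays, and 1 of them, Fcrls, was called, lower in B41 KO. Markers of other cells moved with genotype: 8 of 10 neutrophil and monocyte markers were called lower in B41 KO, where 4.01% of all genes were, and all 10 differed by less than 0 and were well above background on all 6 arrays, their summed intensity being 30438 to 34299 in B41 HET and 5778 to 6261 in B41 KO samples. Of 8 border macrophage markers 4 were called lower and all 8 differed by less than 0, with sums of 2481 to 2664 against 1699 to 1878, and Mrc1 and Lyve1 were well above background on 0 of 3 B41 KO arrays. Those sums rest mostly on Stab1, the brightest of the 8, which differed by -0.49 and was not called, while the median of the 8 was -1.14. Of 6 markers each, 2 endothelial, 1 oligodendrocyte and 1 lymphocyte marker were called lower (4, 5 and 4 differed by less than 0), and 0 astrocyte and 0 neuron markers were called. The endothelial calls were Ly6c1 (-1.79) and Pecam1 (-1.68), while Cldn5 (-0.13) and Slco1a4 (0.04) were not called. Of these lists, 2 endothelial, 3 neuron and 2 lymphocyte markers were well above background on no array, so no fall could be read from them. The part of these other cells in the values below was not tested. In these bulk samples fewer cells of a type and less RNA per cell cannot be told apart.

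Bhlhe41 itself had values of 7.95, 7.87 and 7.65 in the B41 HET samples and 8.56, 7.84 and 8.21 in the B41 KO samples by its brightest probe, a difference of 0.38 ± 0.20 (SE; adjusted p = 0.33). The groups overlapped, and a second probe differed by 0.33 (adjusted p = 0.20). Where these probes lie relative to the inserted cassette and its polyA is not given in the sources used here, so what their signal says of the genotype labels cannot be told. The B41 HET arrays and B41 KO replicate 1 lay in the first row of the slide and B41 KO replicates 2 and 3 in the second, so a fit with the row as a block rests on B41 KO replicate 1 against the 3 B41 HET samples.

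Arntl, which encodes BMAL1, the activator without which the loop does not run, stood nearest to the fold threshold. Its brightest probe read 7.24, 7.43 and 7.14 in B41 HET replicates 1 to 3 and 6.93, 6.73 and 6.66 in B41 KO replicates 1 to 3. Each B41 KO sample lay below each B41 HET sample. The means were 7.27 ± 0.15 and 6.77 ± 0.14 (SD, n = 3 each), the difference was -0.50 (before rounding, a size just under the threshold; 1.41-fold higher in B41 HET), its 95% interval was -0.78 to -0.21 and its adjusted p was 0.068. The other Arntl probes differed by -0.17 (adjusted p = 0.27) and -0.12 (adjusted p = 0.61), so all 3 probes had the same sign with unequal sizes. The adjusted p of the brightest probe was 0.036 once dim probes were left out, 0.037 with trended and robust variances and 0.0036 with normexp background correction, where the difference was -0.33, and the fold was under the threshold in these 3 fits. With any 1 sample left out the difference was -0.57 to -0.41 and the adjusted p 0.089 to 0.17, and the authors' processed values gave -0.50 (past the threshold before rounding, adjusted p = 0.063), so no fit passed both parts of the rule. In the row-blocked fit the difference was -0.34 (adjusted p = 0.38).

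Clock, the partner of BMAL1, read 6.03, 5.67 and 5.98 in B41 HET and 6.38, 6.31 and 6.12 in B41 KO samples. All 3 B41 KO samples were above the B41 HET samples, by a gap of 0.09 at the closest. The difference was 0.37 ± 0.13 (SE), with a 95% interval of 0.06 to 0.69 and an adjusted p of 0.16. Its other probes disagreed in sign, at 0.30 (95% interval -0.25 to 0.85) and -0.20 (95% interval -0.72 to 0.31), and the groups overlapped for both. Npas2, a paralog of Clock that can replace it, was close to background and differed by -0.04 (95% interval -0.73 to 0.64). Of the other E-box binders, Bhlhe40 differed by 0.09 (95% interval -0.19 to 0.36).

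**Figure D2:**
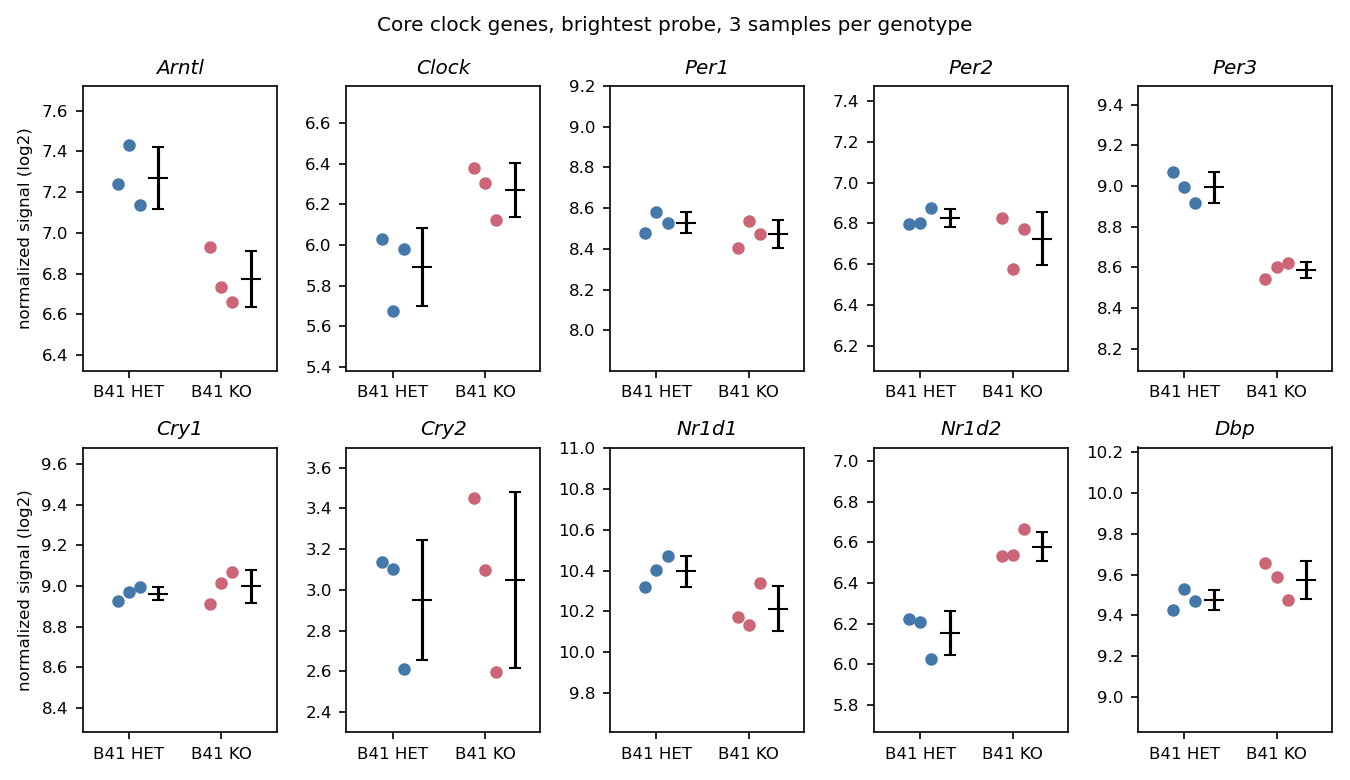
Quantile-normalized log2 intensity of the brightest probe of each core clock gene in every sample, with 1 panel per gene, all panels spanning the same log2 range. Points are samples (3 B41 HET, 3 B41 KO) and bars are means with SD; the groups are apart for Arntl, Clock, Per3 and Nr1d2 and overlap for the other 6 genes.

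Among the period genes, which encode the inhibitors that form the core of the repressive complex, Per3 had the lowest adjusted p. It read 9.07, 8.99 and 8.92 in B41 HET and 8.55, 8.60 and 8.62 in B41 KO samples. Every B41 KO sample was below every B41 HET sample, by 0.30 at the closest, with little spread inside a group (SD 0.08 and 0.04). The difference was -0.40 ± 0.07 (SE), a 1.32-fold higher signal in B41 HET, with a 95% interval of -0.59 to -0.22 and an adjusted p of 0.037. It was thus past the adjusted p and short of the fold threshold. The adjusted p was 0.075 to 0.12 with any 1 sample left out, and the row-blocked difference was -0.45 (adjusted p = 0.17). The second Per3 probe, on another transcript of the gene, was well above background on 0 of 6 arrays, and no level is read from it.

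Per1 read 8.48, 8.58 and 8.53 in B41 HET and 8.40, 8.54 and 8.47 in B41 KO samples. The groups overlapped, and all 6 samples lay within 0.18. The difference was -0.06, with a 95% interval of -0.24 to 0.13, or 0.847-fold to 1.09-fold. Per2 read 6.80, 6.80 and 6.88 in B41 HET and 6.83, 6.58 and 6.77 in B41 KO samples. B41 KO replicate 2 was the lowest of the 6 and the groups overlapped. The difference of Per2 was -0.10 (95% interval -0.33 to 0.12), and that of its second probe 0.04 (95% interval -0.21 to 0.29).

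The cryptochromes, the stronger repressors of CLOCK and BMAL1, gave no detectable difference. Cry1, whose window holds both E-box forms shown above, read 8.93, 8.97 and 8.99 in B41 HET and 8.91, 9.01 and 9.07 in B41 KO samples. It had the narrowest range of the 10 genes, 0.16 over all 6 samples, and its difference was 0.04 (95% interval -0.15 to 0.22). Its second probe was well above background on 0 of 6 arrays. Cry2 was dim, well above background on 2 of 3 arrays of each genotype, and its difference of 0.10 had the widest interval of the 10 genes, -0.54 to 0.74, so that neither a rise nor a fall past the fold threshold lies outside it.

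The REV-ERB genes, whose products repress Arntl by recruiting the NCoR and HDAC3 corepressors, lay on opposite sides of 0. Nr1d1 read 10.3, 10.4 and 10.5 in B41 HET and 10.2, 10.1 and 10.3 in B41 KO samples. The groups just overlapped, and the difference was -0.18 (95% interval -0.40 to 0.04, adjusted p = 0.29). Nr1d2 read 6.22, 6.21 and 6.03 in B41 HET and 6.53, 6.54 and 6.66 in B41 KO samples. Every B41 KO sample was above every B41 HET sample, by 0.31 at the closest. The difference was 0.43 ± 0.09 (SE), 1.34-fold, with a 95% interval of 0.21 to 0.65 and an adjusted p of 0.049. With normexp background correction it was 0.28 (adjusted p = 0.076).

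The second Nr1d2 probe gave 0.55, with a wide interval (-0.02 to 1.13) and an adjusted p of 0.23. Its lowest B41 HET sample, replicate 1 at 4.51, lay below the other two, which read 5.32 and 5.26, and the B41 KO samples read 5.45, 5.63 and 5.67. Without B41 HET replicate 1 this probe's difference was 0.30, and with normexp background correction 0.19. For the brightest probe the adjusted p was 0.11 to 0.13 with any 1 sample left out, and the row-blocked difference was 0.38 (adjusted p = 0.28). Whether the Nr1d1 and Nr1d2 differences themselves differ was not tested.

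Dbp, the D-box activator whose transcript is among those with the widest daily swing in many mouse tissues, read 9.43, 9.53 and 9.47 in B41 HET and 9.66, 9.59 and 9.47 in B41 KO samples. The groups overlapped, and all 6 samples lay within 0.23. The difference was 0.10 (95% interval -0.10 to 0.30), and the second probe differed by 0.02 (95% interval -0.18 to 0.22). As the collection times are not given, this narrow range cannot be set against a time course.

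For 5 of the 10 genes (Per1, Per2, Cry1, Nr1d1 and Dbp) the whole 95% interval lay inside the fold threshold on both sides, so a change of that size lay outside the interval. For the other 5 the interval reached past it. An exact permutation test on a single probe cannot go below p = 0.1 with 3 samples against 3, which is the value that Arntl, Clock, Per3 and Nr1d2 gave (two-sided).

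**Figure D3:**
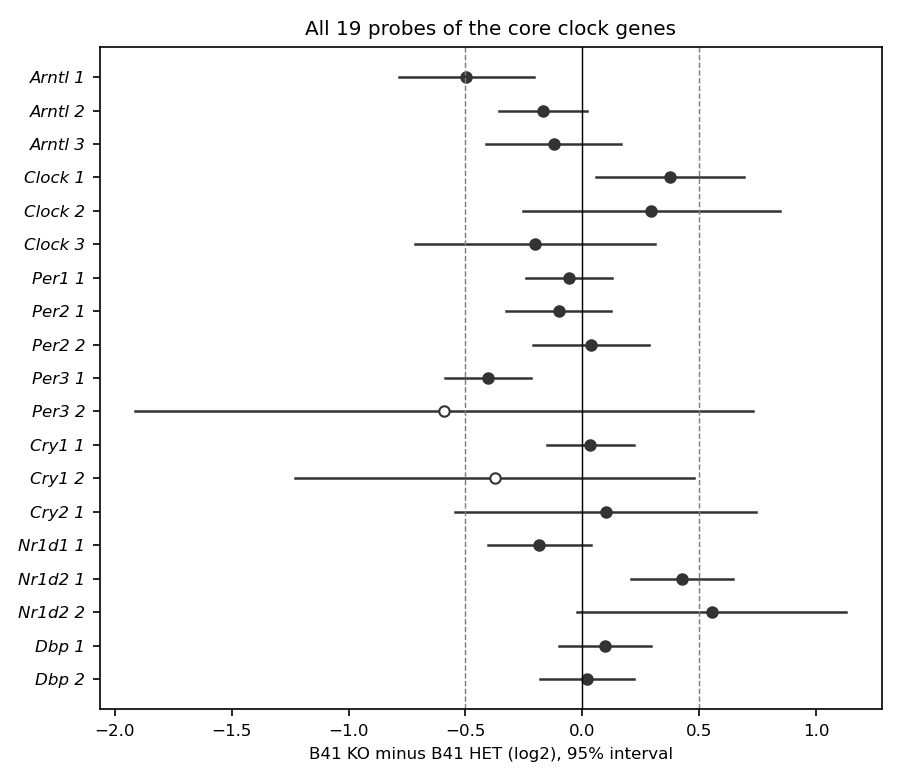
Difference between B41 KO and B41 HET (log2) with its 95% interval for all 19 probes of the core clock genes, numbered within a gene from the brightest down. Open circles are probes well above background on 0 of 6 arrays, dashed lines mark the fold threshold of 0.5, and no probe passed both parts of the rule.

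Among other genes of the clock pathway, 4 fell. Of 27 listed genes (paralogs and repressors of the activators, ROR receptors, D-box factors, kinases, ubiquitin ligases, corepressors and NAD enzymes), 26 had a probe (all but Rorb), and 4 were lower in B41 KO and 0 higher, where 4.01% of all genes fell. The other 22 were not called and differed by -0.57 to 0.38. The median of the 26 genes was -0.16, with 20 below 0, beside 0.01 for all genes.

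Ciart, which encodes CHRONO, a repressor that binds BMAL1, had the largest difference among the 26. It read 8.65, 8.50 and 8.60 in B41 HET and 7.61, 7.64 and 7.30 in B41 KO samples. The groups were 0.86 apart at the closest, and the difference was -1.07 ± 0.12 (SE), 2.10-fold higher in B41 HET (95% interval -1.35 to -0.78, adjusted p = 0.010). Its second, dim probe was well above background on all 3 B41 HET arrays and on no B41 KO array. That probe differed by -1.04 (95% interval -1.82 to -0.26, adjusted p = 0.12) and was not called. With B41 KO values raised to the lowest intensity well above background on each array, its mean was 1.44-fold higher in B41 HET. CACGTG lay in a window of Ciart, Cipc, Sirt1, Per1, Cry1, Tef and Bhlhe41 among the clock genes with a probe on the array. Their brightest probes differed by -1.07, -0.57, -0.43, -0.06, 0.04, 0.16 and 0.38, in that order. Of these, Ciart alone was called, and the other Tef probes were below 0. Cipc was dim, with a 95% interval of -1.57 to 0.44 (adjusted p = 0.48), and its second, dim probe differed by -0.12. Windows were given for 20 of the 27 other clock genes listed. Hdac3, Btrc and Csnk1d, described below, had no window and were not searched.

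The other 3 that fell act after transcription or with REV-ERB. Hdac3, the histone deacetylase of the NCoR complex, differed by -0.81 (adjusted p = 0.0079), while its second probe differed by 0.34 in the other direction (adjusted p = 0.27). Btrc, the F-box protein that marks phosphorylated PER for degradation, differed by -0.69 (adjusted p = 0.020), and its second probe by 0.26 (adjusted p = 0.70). With normexp background correction the brightest Btrc probe differed by -0.24, under the fold threshold, and was not called. Csnk1d, a kinase of PER, differed by -0.67 (adjusted p = 0.016), and its other probes by -0.76 (adjusted p = 0.19) and -0.13 (adjusted p = 0.34). For Hdac3 and Btrc the fall therefore rests on 1 of 2 probes that disagree in sign. Nampt, the rate-limiting enzyme of NAD salvage, and Sirt1, an NAD-dependent deacetylase, passed the adjusted p but not the fold, at -0.49 (adjusted p = 0.023) and -0.43 (adjusted p = 0.036), and a second Sirt1 probe differed by -0.02.

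Of the remaining listed genes, Rora, a receptor that binds the same elements as the REV-ERBs and activates through them, differed by 0.23 (95% interval 0.05 to 0.41, adjusted p = 0.13). The D-box activators related to Dbp differed by 0.16 for Tef (95% interval -0.20 to 0.53) and -0.29 for Hlf (95% interval -1.07 to 0.49). The other Tef probes lay on the other side of 0, at -0.17 and, with separated groups, -0.78 (95% interval -1.39 to -0.16, adjusted p = 0.14). Nfil3, the repressor at the same sites, differed by -0.38 (95% interval -0.88 to 0.11). None of these 4 was called. Ncor1, the scaffold that joins HDAC3 to the REV-ERBs, differed by -0.18 (95% interval -0.34 to -0.01, adjusted p = 0.19), while its other probes gave -0.26 to 0.31, with 2 of them above 0 and with separated groups (0.25 and 0.31, adjusted p = 0.21 and 0.30). Csnk1e, the paralog of Csnk1d, differed by -0.09 (95% interval -0.31 to 0.13), and its other probes by -0.11 and 0.10. Arntl2, the paralog of Arntl, had separated groups and a difference of 0.20 (95% interval 0.04 to 0.36, adjusted p = 0.14).

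With the slide row as a block none of the 4 was called, at -0.98 for Ciart (adjusted p = 0.10), -0.71 for Hdac3 (adjusted p = 0.076), -0.62 for Btrc (adjusted p = 0.16) and -0.69 for Csnk1d (adjusted p = 0.12). In that fit 200 genes were called in all. Leaving out B41 HET replicate 1, B41 HET replicate 2 or B41 KO replicate 1 left 2 of the 26 genes called. Ciart and Hdac3 were called without any 1 sample (adjusted p of 0.022 to 0.049 and 0.027 to 0.046). Csnk1d lost its call without B41 HET replicate 1 or 2 or B41 KO replicate 1 or 2 (adjusted p of 0.058 to 0.072), and Btrc without any 1 B41 HET sample or B41 KO replicate 1 (0.058 to 0.083). With probes averaged per gene, Csnk1d (-0.52, adjusted p = 0.067), Btrc (-0.22) and Hdac3 (-0.23) were not called. Genotype and row are partly confounded in this layout, and their parts cannot be fully told apart.

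**Figure D4:**
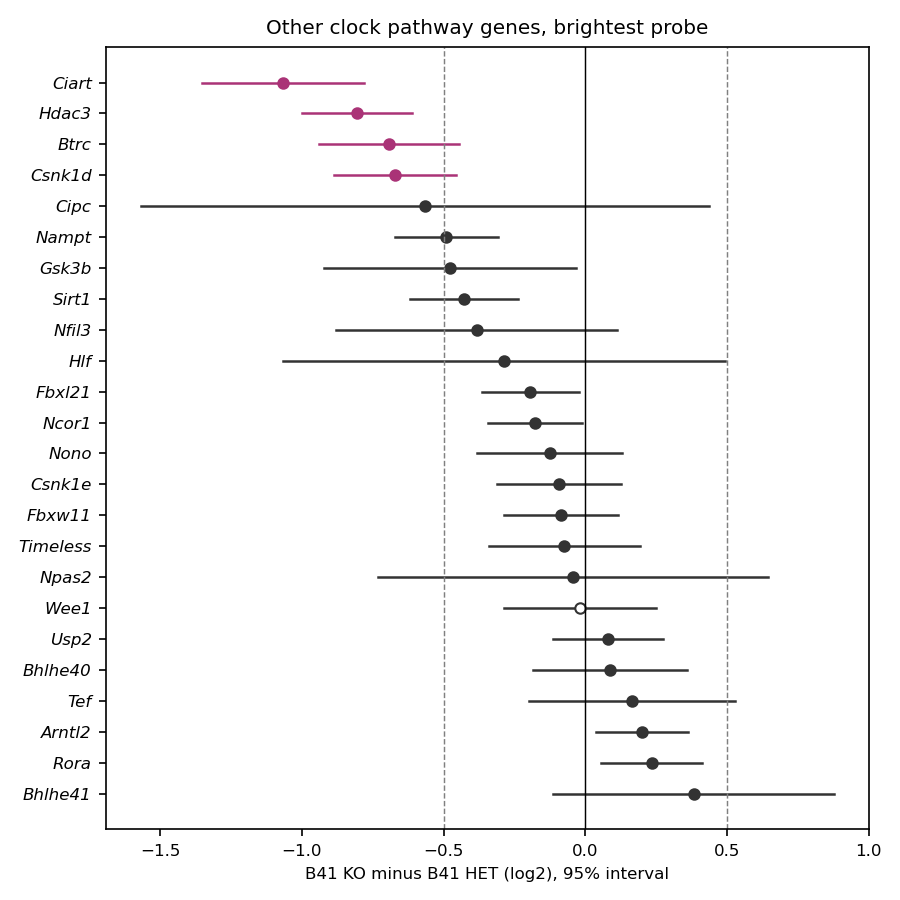
Difference between B41 KO and B41 HET (log2) with its 95% interval for the brightest probe of 24 other clock pathway genes, ordered by size. Coloured points passed the rule (Ciart, Hdac3, Btrc and Csnk1d, all lower in B41 KO), the open circle (Wee1) was well above background on 0 of 6 arrays, and dashed lines mark the fold threshold of 0.5.

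Because several clock genes also respond acutely to stimuli and to glucocorticoids, with Per1 as the usual example, lists of such genes were read on the same arrays. Of 10 immediate early genes, 5 fell in B41 KO (Atf3 by 1.27, Dusp1 by 1.11, Fosb by 0.92, Fos by 0.60 and Jun by 0.55 on the log2 scale) and 0 rose, where 4.01% of all genes fell. The median of the 10 was -0.52. With the slide row as a block 1 was called, and 3 were called when any 1 sample other than B41 KO replicate 2 was left out. Per1 differed by -0.06 on these arrays. Of 6 glucocorticoid-responsive genes, 2 rose (Ddit4 by 0.58, adjusted p = 0.040, and Fkbp5 by 0.54, adjusted p = 0.033) and 0 fell, where 1.44% of all genes rose. Tsc22d3 and Sgk1 differed by -0.41 and -0.40 (adjusted p = 0.084 and 0.11), and a second Tsc22d3 probe by 0.04. A second Fkbp5 probe differed by 0.39 (adjusted p = 0.098) and was not called. Zbtb16 differed by -0.03 by its brightest probe, while its second probe passed the rule at 1.06 (adjusted p = 0.047). That second probe had an adjusted p of 0.064 to 0.14 with any 1 sample left out. Neither Ddit4 nor Fkbp5 was called in any fit that left out 1 sample. The part of these genes in the clock genes' values was not tested.

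**Figure D5:**
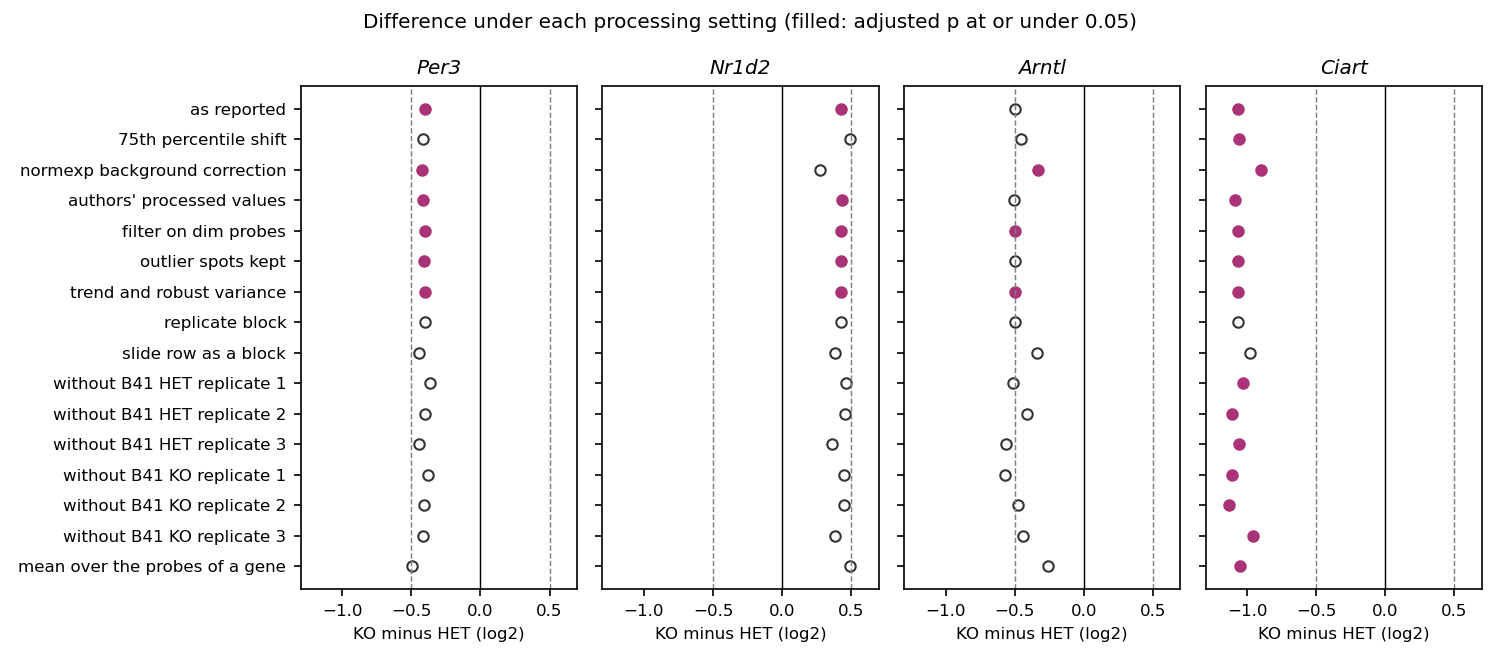
Difference between B41 KO and B41 HET (log2) of Per3, Nr1d2, Arntl and Ciart by their brightest probe under each processing setting, 1 setting per line. Filled points have an adjusted p of at most 0.05; the differences of Per3 and Arntl stay below 0 and that of Nr1d2 above 0 in each setting, with the filled state changing between settings, and Ciart is open in 2 settings, the replicate block and the slide row block.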

How the data were processed

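Cy3-labelled RNA of 6 samples of sorted microglia was hybridised to 1-colour Agilent mouse arrays, 1 per sample. The scanner intensities deposited by the authors were made with Agilent Feature Extraction 11.5.1.1, which subtracts background and detrends within an array. The table of log2 values deposited by the authors, quantile normalized per the methods, ranked probes as the arrays did (Spearman correlation of 1, rounded, in all 6 columns; medians of 5.11 in each) and was used as an alternative. Here, control spots were left out (59305 of 62976 spots remained), as were 95 to 136 spots per array with an outlier flag. Processed intensities were put on the log2 scale, given the same quantiles on all 6 arrays, and spots of one probe were averaged.

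Genotype was fitted with limma 3.58.1 in R 4.3.3 to 56601 probes with at least 2 values per group, and p-values were adjusted by Benjamini-Hochberg. A call needed an adjusted p of at most 0.05 and a log2 difference of at least 0.5 in size. Transcript accessions on the array were matched to RefSeq symbols (GRCm38.p6), which named 33767 probes (59.7%). Each gene was read by its brightest probe, and levels of different probes were not compared. All probes of the 10 genes are described, as are called genes of the other lists. Genes of like pattern were to be named for a called member, and there was none. The 95% intervals use limma's moderated standard error, and 3 arrays per genotype limit the precision. The fit was tested on simulated data. The p-values measure the spread between pooled samples. The members and gene lists were chosen with earlier results of these data known. Of the other clock genes, 2 that were tested are not reported here by name. Promoter windows were read from RefSeq. Proteins, the Per2 promoter and those of other clock genes without a window, Hdac3, Btrc and Csnk1d among them, were not used here.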

Additional observations from a re-analysis of the deposited data

How the results depend on the processing

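The count of 0 core clock genes and 0 probes held in all 14 refits run (other normalizations, background correction, filter, variance model, blocks, each sample left out) and with gene means or the lowest-p probe, and became 2 of each with no fold threshold. Other clock genes called went from 4 to 0 with the replicate block, 0 with the slide row block, 1 with probes averaged per gene, 3 with normexp background correction (Btrc not among them), 5 with the authors' processed values, 6 with no fold threshold, and 2 to 4 without 1 sample (2 without B41 HET replicate 1, B41 HET replicate 2 or B41 KO replicate 1). Immediate early genes called went from 5 to 0 with the replicate block, 1 with the row block, and 3 to 4 without 1 sample (4 without B41 KO replicate 2 and 3 without each other sample). Glucocorticoid-responsive genes called went from 2 to 1 with a 75th percentile shift, 0 with either block, and 0 to 0 without 1 sample. The cause of these changes was not tested.

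The row block turned the sign of the third Clock probe (0.18), the brightest Per2 probe (0.00044), the brightest Cry1 probe (-0.052) and the second Dbp probe (-0.10). Averaging probes gave -0.17 for Cry1, and the 75th percentile shift 0.026 for its dim probe. Leaving out a sample gave -0.0076 to 0.11 for the second Per2 probe, -0.0012 to 0.079 for Cry1, -0.65 to 0.0033 for its dim probe, -0.10 to 0.33 for Cry2 and -0.020 to 0.079 for the second Dbp probe. None of these was called in any fit. The 75th percentile shift moved the median of all probes from 0.02 to 0.13. Per3 and Nr1d2 then had adjusted p of 0.056 and 0.051.

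Replicate numbers in the labels name no shared animal or day. Deviations of same-numbered samples correlated at 0.13, -0.01 and 0.17, and not every sample correlated best with its own number. With the replicate block, 42 of 56601 probes were called in place of 2867, and Per3, Nr1d2 and Arntl had adjusted p of 0.12, 0.15 and 0.13. Signal limited Cry2 and the dim probes of Per3 and Cry1.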
